A study of Homo sapiens with 14 samples.

Results

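The response shared by all targeting siRNA pools was taken as the genes that moved the same way in each of 5 groups of OVCAR4 cells, relative to 2 groups that received non-targeting pools. OVCAR4 is an established human cell line of high-grade serous ovarian cancer. Small interfering RNAs (siRNAs) lead the cell to degrade transcripts that they match, and a non-targeting pool is designed to match none. The group siPAX8 received a pool against PAX8, siSOX17 a pool against SOX17, siDual the PAX8 and SOX17 pools together, siMECOM a pool against MECOM and siWT1 a pool against WT1. The group siNT1 received the supplier's ON-TARGETplus non-targeting pool and siNT2 a custom pool of non-targeting oligonucleotides. All groups were reverse transfected with siRNA at 120 nM into 300000 cells, given fresh medium after 24 hours and harvested after 72 hours. The 5 targeting groups hold 4 distinct pools, because siDual shares its pools with siPAX8 and siSOX17. Each group had 2 libraries, and the labels do not say whether these came from separate transfections, so the p-values measure the spread between libraries, which may be technical.

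A gene was called shared where the quasi-likelihood test of edgeR, after Benjamini-Hochberg correction over the 21032 genes tested, gave an adjusted p under 0.05 in the mean of the 5 groups and in each of the 5 separately, with the same sign throughout. This held for 650 of 21032 genes, of which 286 were higher (1.36%) and 364 lower (1.73%) in the targeting groups. The 5 comparisons use the same 4 control libraries, so a low or high value in those libraries moves all 5 together. Adjusted p-values of shared genes are therefore given below as a description of how the genes were chosen.

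By way of background, the mitochondrial genome is read as long transcripts from both strands, which are cut at the tRNAs that lie between the messenger and ribosomal RNAs. Its transcripts encode subunits of the respiratory chain. ATF4 is a transcription factor made when amino acids run short or the endoplasmic reticulum is under stress, and it drives genes for serine synthesis, amino acid transport and tRNA charging. Wnt ligands are lipid-modified by the acyltransferase PORCN before they leave the cell, and the extracellular esterase NOTUM removes that lipid again. WNT7A is a ligand known for its role in the Mullerian duct, from which the oviduct and uterus form.

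The shared response had 3 main features. Mitochondrially encoded RNAs took a larger share of the counts in all 10 targeting libraries, and 29 of 37 tested mitochondrial genes were shared higher. ATF4 and enzymes of serine and proline synthesis were lower, as were WNT7A, PORCN and NOTUM and the chemokine genes CXCL1 and CXCL2. Another chemokine gene, CCL22, was shared higher. Of 28 genes of mitosis, 9 were shared lower, by smaller amounts in siMECOM and siWT1 than in siPAX8, siSOX17 and siDual.

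**Figure D1:**
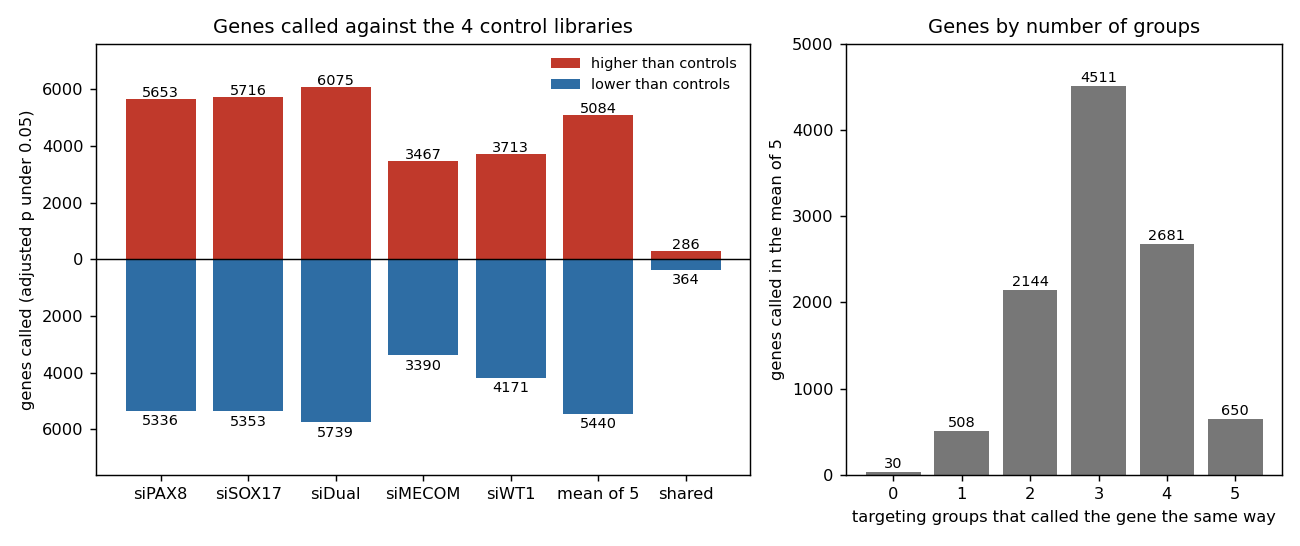
Left: genes called higher (red, upward) and lower (blue, downward) than the 4 control libraries in each targeting group, in the mean of the 5 groups, and in all of these at once (shared). Right: the 10524 genes called in the mean of 5, by the number of targeting groups that called them the same way. The bar at 5 holds the 650 shared genes, and the tallest bar, with 4511 genes, stands at 3 groups.

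Most genes called in the mean did not move in all 5 groups. The mean contrast called 10524 genes, 50% of those tested, with 5084 higher (24.2%) and 5440 lower (25.9%). Of these, 2681 were called the same way in 4 groups, 4511 in 3, 2144 in 2, 508 in 1 and 30 in none, and 2375 were called in opposite directions in some of the 5 groups. The share of genes called higher was 26.9% in siPAX8, 27.2% in siSOX17, 28.9% in siDual, 16.5% in siMECOM and 17.7% in siWT1. The share called lower was 25.4% in siPAX8, 25.5% in siSOX17, 27.3% in siDual, 16.1% in siMECOM and 19.8% in siWT1. A wider reading, which asks for a call in the mean and 1 sign in all 5 groups, held for 2001 higher genes (9.51%) and 2047 lower genes (9.73%). A narrower reading, which asks for a change past 1.5-fold in each group, held for 83 higher genes (0.395%) and 60 lower genes (0.285%).

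The targeting and control libraries were separate for most shared genes, which largely follows from how these genes were chosen. For the ranked genes named below, separation was itself required. All 10 targeting libraries lay above all 4 control libraries for 491 genes (2.33% of genes tested) and below them for 630 genes (3.00%). Among shared genes this was so for 248 of the 286 higher genes (1.18% of genes tested) and 342 of the 364 lower genes (1.63%). The control pools differed from each other at 51 genes that were higher in siNT1 than in siNT2 (0.242%) and 12 that were lower (0.0571%). Of the shared genes, 5 higher and 2 lower ones were among these. At the edge of the rule, the largest adjusted p over the comparisons was 0.0499 for MORC2 and 0.0498 for IMPDH1, just inside, and 0.0503 for RERE and 0.0504 for AGAP2-AS1, just outside.

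Gene counts summed to 41107918 to 49803860 in the targeting libraries and 40832825 to 49059114 in the control libraries, and the biological coefficient of variation was 7.57%. Defining markers of other cell types were detected at varying levels. Their summed level was 9.85 to 44.5 CPM in targeting and 18.9 to 22.7 CPM in control libraries for immune markers, and 25.3 to 83.8 CPM in targeting and 34.9 to 45.1 CPM in control libraries for fibroblast markers. Most of each sum came from 1 gene. The other immune markers reached at most 0.63 CPM and the other fibroblast markers at most 2.63 CPM in any library. CD68, of the immune markers, was at 33.8 to 43.8 CPM in siPAX8, siSOX17 and siDual and 9.3 to 12.3 CPM in siMECOM and siWT1, against 18.3 to 22.04 CPM in the controls. COL1A1, of the fibroblast markers, was at 59.5 to 81.2 CPM in siPAX8, siSOX17 and siDual and 23.8 to 26.8 CPM in siMECOM and siWT1, against 34.03 to 44.2 CPM in the controls. Their part in the results was not tested. In bulk RNA, fewer cells of a kind and less RNA per cell cannot be told apart. Of the targeted genes, MECOM was shared lower, at -0.41, -1.54, -1.4, -3.36 and -0.35 on the log2 scale in siPAX8, siSOX17, siDual, siMECOM and siWT1. It kept that status in 12 of 25 alternative settings. Those that left out siDual, siWT1 or siMECOM as a group kept all 650 shared genes, since fewer groups have to be called. PAX8 had log2 fold changes of -2.52, 0.4, -1.98, -0.17 and -0.83 in the same order and SOX17 of -0.46, -2.94, -2.72, 1.05 and 0.08. WT1 held 14 to 22 counts in the control libraries and 0 and 1 counts in siWT1 and 5 to 40 counts in the other targeting libraries, so its own target stood at few counts in the control libraries.

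Mitochondrially encoded RNAs held the highest share of shared genes of all lists examined. Their share of all counts was 10.3 and 9.27% in siPAX8, 10.01 and 10.2% in siSOX17, 11 and 10.3% in siDual, 9.70 and 8.58% in siMECOM and 9.29 and 7.91% in siWT1, against 6.04 and 5.53% in siNT1 and 5.34 and 6.13% in siNT2. The lowest targeting library thus stood above the highest control library. All 37 tested genes were called higher in the mean, with a median log2 fold change of 0.84, against -0.01 over all genes tested. The shared higher genes were 12 of the 13 messenger RNAs, 17 of the 22 tRNAs and neither of the 2 ribosomal RNAs.

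Among the messenger RNAs, MT-ND1, a core subunit of respiratory complex I, was at 4341 and 3905 CPM in siPAX8, 4017 and 4180.2 in siSOX17, 4536 and 3967 in siDual, 3669 and 3047 in siMECOM and 4011 and 3581 in siWT1, against 2180.5 and 1838 CPM in siNT1 and 1964 and 2369 in siNT2. Every targeting library was above every control library, and the log2 fold change in the mean of the 5 groups was 0.91 ± 0.07 (± SE from the fit, adjusted p = 5.53e-09). No difference among the 5 targeting groups was called for MT-ND1 (adjusted p = 0.0843). MT-ND4L, another complex I subunit whose annotated exon overlaps that of MT-ND4, ranged over 2053 to 2804 CPM in the 10 targeting libraries, against 1246 to 1528 CPM in the 4 control libraries. Its log2 fold changes were 0.76, 0.94, 0.92, 0.67 and 0.68 in siPAX8, siSOX17, siDual, siMECOM and siWT1. MT-ND6, the messenger RNA not shared, had log2 fold changes of 0.84, 1.34, 1.28, 0.64 and 0.18 in the same order, and the siWT1 value was not called (adjusted p = 0.178).

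The ribosomal RNAs were not called in siWT1. MT-RNR2, the large mitochondrial ribosomal RNA, was at 14975 and 12615 CPM in siPAX8, 13252 and 14384 in siSOX17, 14478 and 13953 in siDual, 8681 and 6507 in siMECOM and 7034 and 5273 in siWT1, against 5610.3 and 5125 CPM in siNT1 and 5497 and 6184 in siNT2. Of the siWT1 libraries, 1 was above all controls and the other within their range, and the log2 fold changes were 1.3, 1.3, 1.34, 0.44 and 0.14 in siPAX8, siSOX17, siDual, siMECOM and siWT1. MT-RNR1, the small ribosomal RNA, gave 0.85, 1.29, 1.12, 0.64 and 0.13 in the same groups.

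The tRNAs showed more than one pattern, and 3 are printed as their gene sequences from the GENCODE 29 transcripts on hg38, 5′ to 3′. MT-TT, the threonine tRNA (chrM:15888-15953, plus strand), and MT-TF, the phenylalanine tRNA (chrM:577-647, plus strand), are shown because they rose by a factor of at least 2 in each of the 5 groups. MT-TA, the alanine tRNA (chrM:5587-5655, minus strand), is shown for a cluster that changed less in siMECOM and siWT1 than in the other groups.
MT-TT: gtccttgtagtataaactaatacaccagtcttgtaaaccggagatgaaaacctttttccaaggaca
MT-TF: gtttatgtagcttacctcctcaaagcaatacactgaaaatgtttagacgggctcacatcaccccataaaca
MT-TA: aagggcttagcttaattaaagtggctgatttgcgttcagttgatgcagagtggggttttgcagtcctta

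MT-TT was at 26.2 and 21.2 CPM in siPAX8, 21.7 and 21.2 in siSOX17, 29.2 and 28.1 in siDual, 19.6 and 18 in siMECOM and 19.5 and 16.7 in siWT1, against 6.86 and 5.82 CPM in siNT1 and 8.7 and 9.99 in siNT2, with all targeting libraries above all controls. Its log2 fold changes were 1.62, 1.48, 1.9, 1.29 and 1.24 in siPAX8, siSOX17, siDual, siMECOM and siWT1. MT-TF was at 5.86 and 4.86 CPM in siPAX8, 4.58 and 4.06 in siSOX17, 6.01 and 6.5 in siDual, 6.1 and 5.18 in siMECOM and 6.17 and 6.28 in siWT1, against 1.51 and 1.7 CPM in siNT1 and 2.93 and 2.64 in siNT2, a low level at which its log2 fold changes were 1.34, 1.03, 1.56, 1.41 and 1.55. The neighbouring minus-strand genes MT-TA, MT-TN, MT-TC and MT-TY behaved differently from MT-TT and MT-TF, but the pattern was not theirs alone. The minus-strand gene MT-TP, outside this cluster, gave 1.73, 1.56, 1.78, 0.53 and 0.53 in siPAX8, siSOX17, siDual, siMECOM and siWT1. MT-RNR2, above, split the groups in a like way. For MT-TA, MT-TN, MT-TC and MT-TY the ranges were as follows. Over these 4 genes the log2 fold change lay between 1.71 and 1.81 in siPAX8, 1.47 and 1.69 in siSOX17 and 1.94 and 2.09 in siDual, but between 0.53 and 0.59 in siMECOM and 0.28 and 0.34 in siWT1. MT-TA was at 735 and 589 CPM in siPAX8, 654 and 559 in siSOX17, 764 and 843 in siDual, 311 and 255 in siMECOM and 245 and 220.3 in siWT1, against 188 and 182 CPM in siNT1 and 187 and 197 in siNT2, and its level differed among the targeting groups (adjusted p = 9.27e-11). MT-TV, the valine tRNA, had its largest value in siWT1, at 0.82, 1.1, 1.33, 1.23 and 1.76 in siPAX8, siSOX17, siDual, siMECOM and siWT1. In MT-TQ, on the minus strand, and MT-TM, on the plus strand, siMECOM and siWT1 changed most. MT-TQ gave 0.61, 0.41, 0.59, 1.0 and 1.18 and MT-TM 0.56, 0.49, 0.55, 0.92 and 1.13 in the same order. In both, the ranges of targeting and control libraries overlapped.

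**Figure D2:**
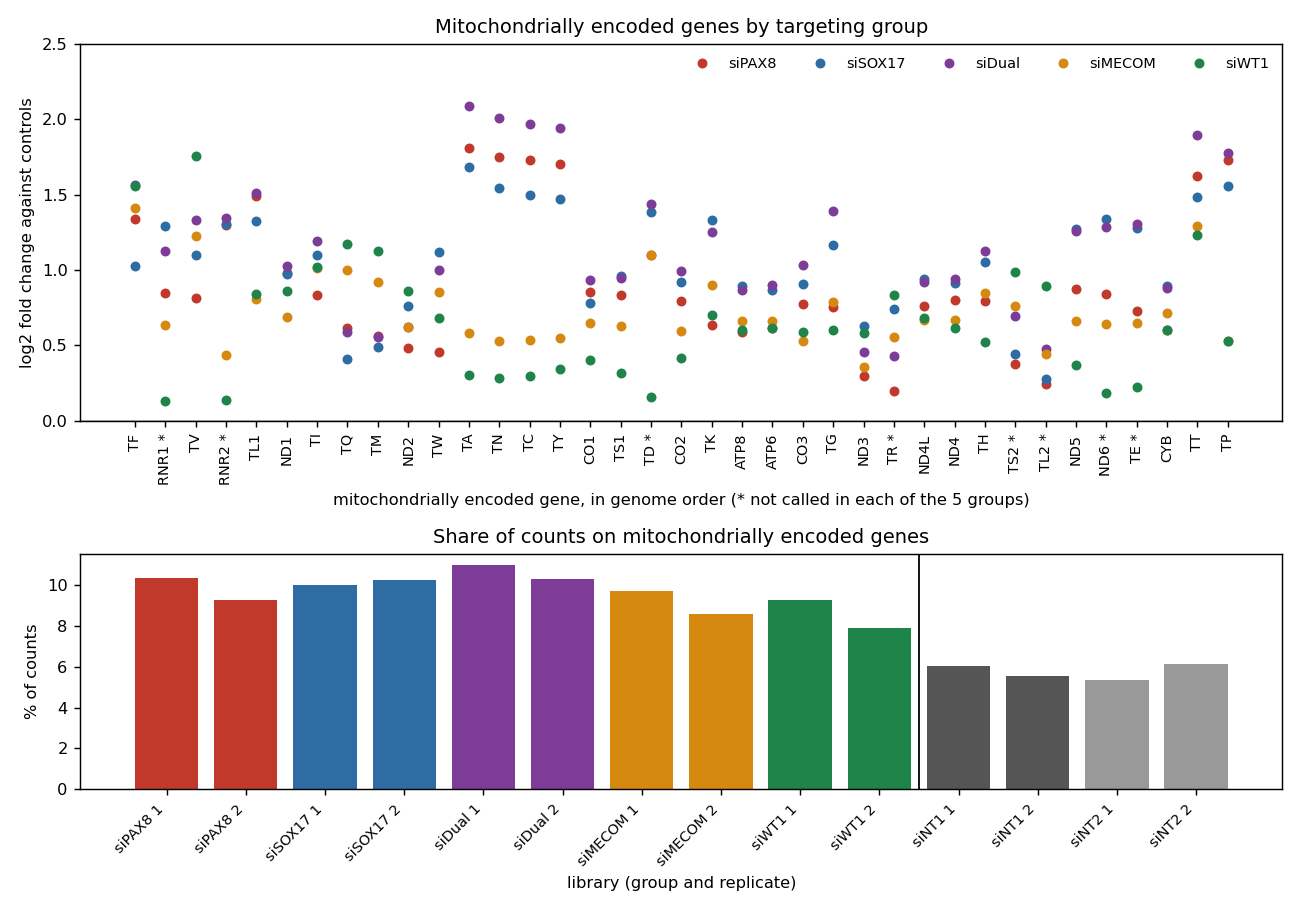
Top: log2 fold change against the controls of each mitochondrially encoded gene (x axis, genome order) in the 5 targeting groups; an asterisk marks genes not called in each group. Bottom: share of all counts on these genes in each library, targeting groups left of the line and controls right of it, with bars from 0. All points lie above 0. The cluster of TA, TN, TC and TY splits siPAX8, siSOX17 and siDual from siMECOM and siWT1, as do TP and RNR2. Every targeting library is above 7.9% while no control library passes 6.13%.

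These genes are short, adjoin each other and lie on both strands. Which strand the counting used is not known from the sources used here, so reads of a tRNA cannot be told apart from reads of a longer transcript that covers it. When the mitochondrial genes were left out of the library sizes and tests, 246 genes were shared higher and 385 lower. Nuclear genes for transcription and RNA processing in mitochondria, a list added after the data had been seen, held no shared gene among 34 tested. In the mean, 6 of them were higher and 16 lower, with a median log2 fold change of -0.11. The median was -0.20 in siPAX8, -0.22 in siSOX17, -0.31 in siDual and -0.01 in siMECOM, but 0.36 in siWT1, where 22 were called higher and 2 lower.

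ATF4 and several genes that it is known to drive were lower in all 5 groups. Of 28 tested genes of amino acid and unfolded protein stress, 6 were shared lower and none shared higher (21.4%, against 3.09% of all genes tested), with a list median of -0.21 in the mean. The 6 were ATF4, DDIT3, TRIB3, PSAT1, PHGDH and SHMT2. In the mean alone, 15 of the 28 were lower and 8 higher, so the list did not move as a whole. Of the genes of amino acid metabolism, those other than ATF4, PSAT1 and SLC7A11 fall outside the naming rule and were chosen after their values were seen. So were PORCN, CCL22, TLR1, TLR6, TTK, BIRC5, CCNB1, E2F1, RRM2B, ESRP1 and the mitochondrial genes other than MT-ND1 and MT-ND4L.

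ATF4 (chromosome 22, 39519695 to 39522685, plus strand) was at 219 and 213 CPM in siPAX8, 196 and 189.7 in siSOX17, 167 and 176 in siDual, 143 and 154 in siMECOM and 174 and 189 in siWT1, against 326 and 342 CPM in siNT1 and 362 and 358 in siNT2. Every targeting library was below every control library, the siMECOM libraries lowest. The log2 fold change in the mean was -0.94 ± 0.04 (SE, adjusted p = 2.36e-12), and the 5 groups differed from each other (adjusted p = 5.44e-05). DDIT3, which encodes the stress factor CHOP, ranged over 11.2 to 13.8 CPM in the 10 targeting libraries, against 18.2 to 19.8 CPM in the 4 control libraries and gave -0.48, -0.6, -0.64, -0.66 and -0.47 on the log2 scale in siPAX8, siSOX17, siDual, siMECOM and siWT1. No difference among the groups was called for DDIT3 (adjusted p = 0.241). TRIB3, a pseudokinase that ATF4 and CHOP induce, gave -0.36, -0.51, -0.74, -0.21 and -0.85, and it was shared in 17 of 25 alternative settings.

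Enzymes of serine and proline synthesis were among the shared lower genes. A list of 17 genes of serine, glycine, proline and folate metabolism was added after the data had been seen. Of these, 5 were shared lower and none higher (29.4%, against 3.09% of all genes tested). They were PHGDH, PSAT1, SHMT1, SHMT2 and PYCR1, and 12 of the 17 were lower in the mean. PHGDH, PSAT1 and SHMT2 were also counted in the list of amino acid and unfolded protein stress, so the shares of these lists are not separate. PHGDH, the first enzyme of serine synthesis from glycolysis, was at 149 and 135 CPM in siPAX8, 100.3 and 100.01 in siSOX17, 101 and 87.7 in siDual, 183 and 165 in siMECOM and 250.5 and 295 in siWT1, against 337 and 377 CPM in siNT1 and 354 and 375 in siNT2. It was lowest in siSOX17 and siDual and nearest to the controls in siWT1, with log2 fold changes of -1.34, -1.85, -1.93, -1.05 and -0.4 in siPAX8, siSOX17, siDual, siMECOM and siWT1. PSAT1 (chromosome 9, 78297143 to 78330093, plus strand), the aminotransferase of the next step, was at 65.6 and 67.2 CPM in siPAX8, 51 and 50.4 in siSOX17, 47.6 and 49.3 in siDual, 57.4 and 58.9 in siMECOM and 99 and 94.8 in siWT1, against 129.99 and 145 CPM in siNT1 and 149.8 and 138 in siNT2. Its targeting and control libraries did not overlap (log2 fold change -1.18 ± 0.04, adjusted p = 1.26e-13), and siWT1 again changed least.

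SHMT2, the mitochondrial enzyme that turns serine into glycine, ranged over 40.8 to 81.2 CPM in the 10 targeting libraries, against 90.8 to 103 CPM in the 4 control libraries, with -0.79, -1.11, -1.2, -0.79 and -0.32 on the log2 scale in siPAX8, siSOX17, siDual, siMECOM and siWT1. SHMT1, its cytosolic counterpart, gave -0.85, -0.44, -0.76, -0.29 and -0.35. PYCR1, which completes proline synthesis in mitochondria, gave -0.57, -0.66, -0.72, -0.8 and -0.26. In each of these enzymes except SHMT1 the smallest change was in siWT1. SLC7A11, the cystine transporter that is counted here among genes of NRF2 and iron handling, was also shared lower. It ranged over 4.19 to 18.3 CPM in the 10 targeting libraries, against 18.9 to 28.8 CPM in the 4 control libraries, with log2 fold changes of -0.51, -1.97, -2.41, -1.31 and -1.06, and its antisense gene SLC7A11-AS1, whose exons overlap it, fell by a like amount (-1.48 in the mean).

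The enzymes that charge tRNAs in the cytosol moved less. Of 20 tested, also a list added after the data had been seen, 14 were lower and 2 higher in the mean. Of the 20, 3 were shared lower (15%, against 3.09% of all genes tested): AARS for alanine, WARS for tryptophan and YARS for tyrosine. AARS was at 170.4 and 164 CPM in siPAX8, 187 and 204 in siSOX17, 160.2 and 168 in siDual, 197 and 201 in siMECOM and 223 and 227 in siWT1, against 252 and 279 CPM in siNT1 and 283 and 303 in siNT2, all targeting libraries below all controls. Its log2 fold changes were -0.74, -0.51, -0.77, -0.49 and -0.31 in siPAX8, siSOX17, siDual, siMECOM and siWT1. WARS gave -0.23, -0.3, -0.49, -1.01 and -0.22, and YARS -0.29, -0.59, -0.67, -0.7 and -0.3. In the aminoacyl-tRNA synthetase list as a whole the median was -0.30 in the mean and -0.05 in siWT1.

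Promoter windows of these genes were searched for TTGCATCA, a spelling of the C/EBP-ATF response element through which ATF4 is known to act. Other spellings of the element were not searched. A window runs from 250 bases before to 50 bases after the start given by RefSeq (GRCh38.p14), and either strand was counted. Among 11562 protein-coding genes tested with a window, 0.554% held the letters. They were in 1.19% of the windows of shared lower genes (3 of 252) and in none of the 164 windows of shared higher genes. In the 3 lists of amino acid metabolism above, 1 of 8 shared genes with a window held them, and so did 8 of 42 genes that were not shared. In the tRNA synthetase list, 1 of 2 shared and 5 of 14 other genes did. The window of TARS (chr5:33440715-33441014, plus strand) is shown, with the letters in capitals, as a gene that holds them and was not shared.
TARS: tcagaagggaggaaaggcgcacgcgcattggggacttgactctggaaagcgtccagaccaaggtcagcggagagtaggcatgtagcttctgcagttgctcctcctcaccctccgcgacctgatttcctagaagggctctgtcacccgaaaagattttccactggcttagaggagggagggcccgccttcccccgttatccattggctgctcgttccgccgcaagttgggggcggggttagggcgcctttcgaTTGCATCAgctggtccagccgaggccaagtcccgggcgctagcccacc
TARS, the threonine tRNA synthetase, had a log2 fold change of -0.19 in the mean. The windows of ATF4, PSAT1 and PHGDH do not hold these letters, which says nothing about other spellings within the window or sites elsewhere.

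WNT7A, PORCN and NOTUM fell in every group. WNT7A (chromosome 3, 13816258 to 13880121, minus strand) was at 51.2 and 54.7 CPM in siPAX8, 94.9 and 109.6 in siSOX17, 34.1 and 41 in siDual, 59.8 and 61.5 in siMECOM and 104 and 101 in siWT1, against 225 and 218 CPM in siNT1 and 206 and 199 in siNT2. The targeting libraries lay between 34.1 and 109.6 CPM and the controls at 199 or above, and the least changed groups were siSOX17 and siWT1. The log2 fold change in the mean was -1.68 ± 0.05 (SE, adjusted p = 1.64e-14), with -2.0, -1.05, -2.49, -1.8 and -1.05 in siPAX8, siSOX17, siDual, siMECOM and siWT1. PORCN was at 73.6 and 70.2 CPM in siPAX8, 48.9 and 46 in siSOX17, 57.6 and 56.3 in siDual, 34.5 and 36.6 in siMECOM and 66.8 and 79.6 in siWT1, against 144 and 124 CPM in siNT1 and 124 and 143 in siNT2, lowest in siMECOM. NOTUM (chromosome 17, 81952507 to 81961840, minus strand) was at 5.39 and 5.77 CPM in siPAX8, 3.11 and 1.59 in siSOX17, 1.33 and 0.878 in siDual, 7.33 and 7.46 in siMECOM and 8.27 and 10.9 in siWT1, against 21.8 and 19.97 CPM in siNT1 and 22.9 and 22.9 in siNT2, lowest in siDual. Its log2 fold changes were -1.97, -3.21, -4.32, -1.56 and -1.19 in siPAX8, siSOX17, siDual, siMECOM and siWT1.

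These 3 were the shared genes among 17 tested Wnt ligands and genes of their secretion (17.6%, against 3.09% of all genes tested). The list was added after the data had been seen. Of the 17, 7 were higher and 5 lower in the mean, with a median log2 fold change of 0.26, so the fall of WNT7A, PORCN and NOTUM was not that of the list. In the list of Wnt response genes, 2 of 19 were shared lower (10.5%, against 3.09% of all genes tested), again NOTUM and WNT7A. The median there was -0.17 in the mean, -0.44 in siSOX17 and 0.06 in siWT1.

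**Figure D3:**
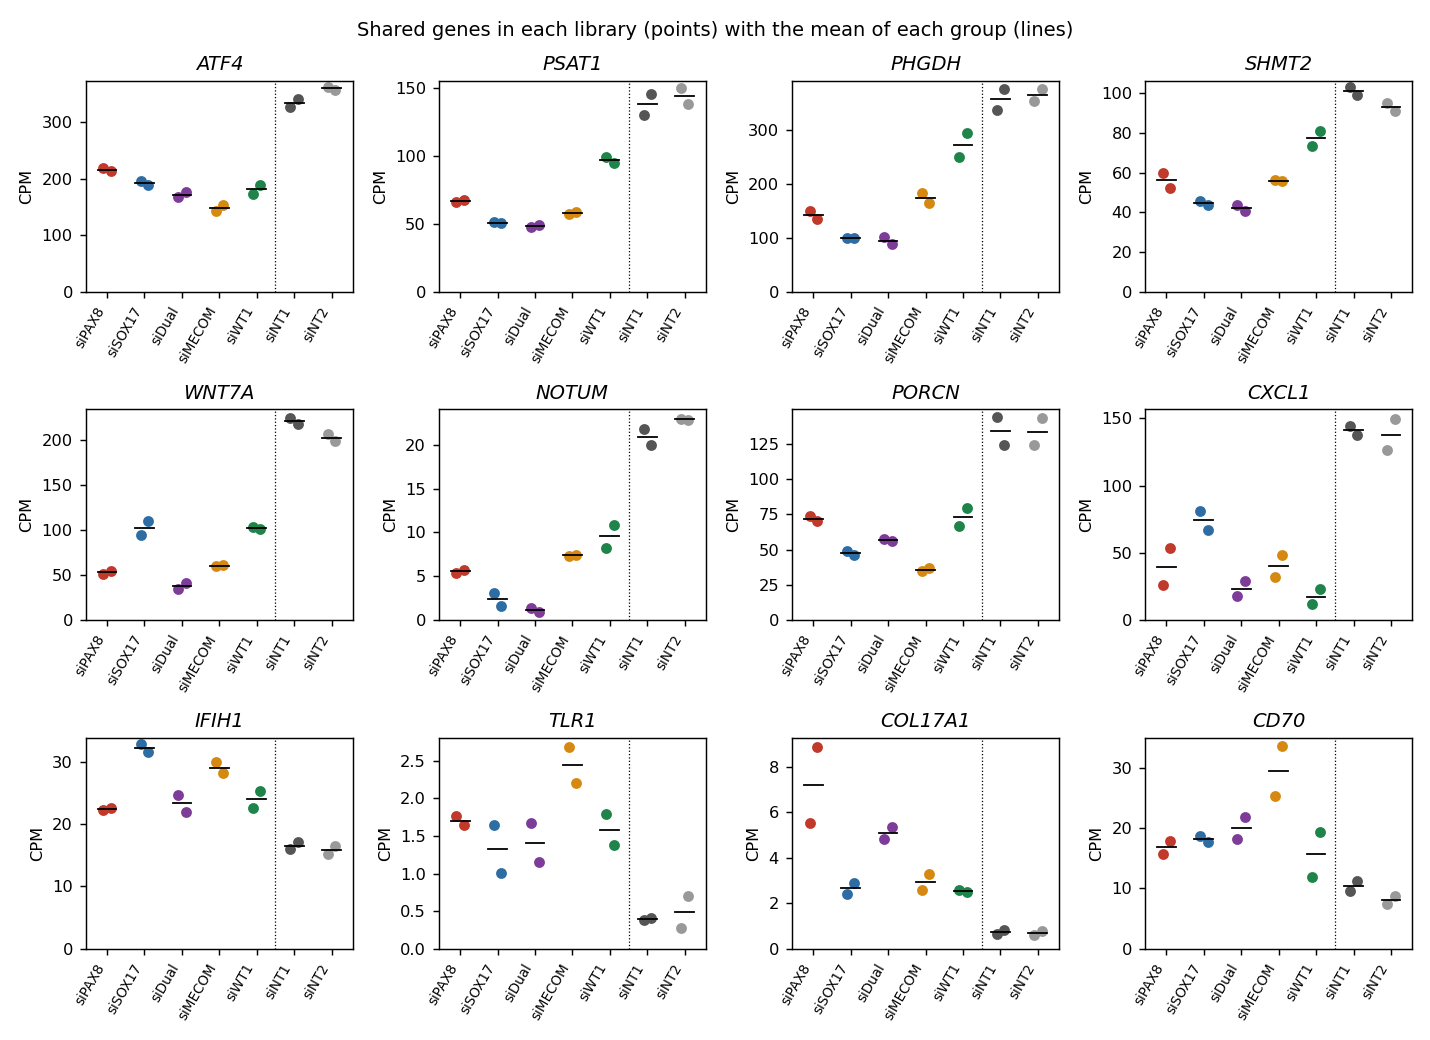
Level of 12 shared genes in CPM in each library (points) with the mean of each group (lines), on axes that start at 0. Targeting groups stand left of the dotted line and the control groups right of it. For each gene the 10 targeting points lie on 1 side of the 4 control points, below them for the first 8 genes and above them for IFIH1, TLR1, COL17A1 and CD70.

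Of the chemokine genes, CXCL1 and CXCL2 were shared lower and CCL22 was shared higher. CCL22 kept that status in 17 of 24 alternative settings that tested it. CXCL1 (chromosome 4, 73869393 to 73871242, plus strand), a chemokine that attracts neutrophils, was at 25.8 and 53.2 CPM in siPAX8, 81.3 and 67.3 in siSOX17, 17.6 and 28.9 in siDual, 31.7 and 48.2 in siMECOM and 11.8 and 23.2 in siWT1, against 145 and 138 CPM in siNT1 and 126 and 149.6 in siNT2. It was lowest in siWT1 and highest among the targeting groups in siSOX17, and all targeting libraries were below all controls (log2 fold change -2.02 ± 0.16, adjusted p = 2.58e-09). CXCL2, a close relative of CXCL1 whose reads may in part be shared with it, ranged over 0.559 to 2.18 CPM in the 10 targeting libraries, against 3.23 to 5.07 CPM in the 4 control libraries, with -1.02, -1.48, -2.39, -1.02 and -1.68 on the log2 scale. LTB, lymphotoxin beta of the TNF family, ranged over 0.604 to 3.47 CPM in the 10 targeting libraries, against 4.73 to 7.9 CPM in the 4 control libraries. CXCL1 and CXCL2 were the shared genes among 27 tested genes of NF-kB and inflammatory cytokines (7.41%, against 3.09% of all genes tested). In the mean, 7 of the 27 were higher and 14 lower, against 24.2% and 25.9% of all genes tested. The list did not move as a whole, with medians of 0.28 in siPAX8, 0.02 in siSOX17, -0.48 in siDual, -0.59 in siMECOM and -0.37 in siWT1.

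CD70, another TNF family ligand, was shared higher, at 15.7 and 17.8 CPM in siPAX8, 18.7 and 17.7 in siSOX17, 18.1 and 21.9 in siDual, 25.3 and 33.6 in siMECOM and 11.9 and 19.4 in siWT1, against 9.62 and 11.2 CPM in siNT1 and 7.47 and 8.69 in siNT2. Its log2 fold change was 1.09 ± 0.11 in the mean and largest in siMECOM (1.68). The Toll-like receptors TLR1 and TLR6, neighbours on chromosome 4 that pair with TLR2 to sense bacterial lipopeptides, were shared higher from low levels. TLR1 ranged over 1.01 to 2.69 CPM in the 10 targeting libraries, against 0.281 to 0.704 CPM in the 4 control libraries, and TLR6 over 0.572 to 2.93 CPM in the 10 targeting libraries, against 0.0943 to 0.286 CPM in the 4 control libraries. In TLR6 the siMECOM libraries stood well above the other targeting libraries, with log2 fold changes of 1.76, 2.1, 2.06, 3.74 and 1.63 in siPAX8, siSOX17, siDual, siMECOM and siWT1. Of 7 receptors tested, a list added after the data had been seen, 28.6% were shared, against 3.09% of all genes tested. In the mean, 5 of the 7 were higher and none lower, against 24.2% and 25.9% of all genes tested.

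Sensors of double-stranded RNA rose in part. IFIH1 (chromosome 2, 162267079 to 162318703, minus strand), which encodes the sensor MDA5, was at 22.2 and 22.6 CPM in siPAX8, 33 and 31.6 in siSOX17, 24.8 and 22 in siDual, 29.96 and 28.3 in siMECOM and 22.7 and 25.4 in siWT1, against 16 and 17.2 CPM in siNT1 and 15.1 and 16.5 in siNT2. All targeting libraries were above all controls (log2 fold change 0.68 ± 0.06, adjusted p = 9.08e-09), and the rise was largest in siSOX17. Its log2 fold changes were 0.47, 1.0, 0.53, 0.84 and 0.57 in siPAX8, siSOX17, siDual, siMECOM and siWT1. Of 14 tested genes of double-stranded RNA sensing, 2 were shared higher (14.3%, against 3.09% of all genes tested). In the mean, 7 of the 14 were higher and 4 lower, with a list median of 0.06.

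Of 38 interferon-stimulated genes, 2 were shared higher, IFI27 and RSAD2 (5.26%, against 3.09% of all genes tested). IFI27 was at 171 and 164 CPM in siPAX8, 179 and 141 in siSOX17, 185 and 181 in siDual, 159 and 156 in siMECOM and 142 and 151 in siWT1, against 117 and 115 CPM in siNT1 and 95.9 and 102 in siNT2, with the targeting libraries all above the controls and a log2 fold change of 0.60 ± 0.06. RSAD2, the antiviral protein viperin, ranged over 2.21 to 4.2 CPM in the 10 targeting libraries, against 1.39 to 1.86 CPM in the 4 control libraries. No difference among the groups was called for RSAD2 (adjusted p = 0.533), and its exons overlap those of CMPK2, which had a log2 fold change of -0.7. The interferon list had a median of 0.10 in the mean and 0.44 in siMECOM, against 0.01, 0.24, 0.00 and 0.02 in siPAX8, siSOX17, siDual and siWT1. None of 18 genes of the RNA interference machinery was shared, with 5 higher and 3 lower in the mean and a median of 0.02.

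Several genes of mitosis were shared lower. Of 28 tested, 9 were shared lower (32.1%, against 3.09% of all genes tested) and all 28 were lower in the mean. They were CCNB1, CCNB2, PLK1, AURKB, TOP2A, BIRC5, UBE2C, TTK and PRC1. The median of the list was -1.61 in siPAX8, -0.86 in siSOX17, -1.15 in siDual, -0.20 in siMECOM and -0.19 in siWT1. PLK1, the mitotic polo-like kinase, was at 88 and 78.5 CPM in siPAX8, 108 and 119.7 in siSOX17, 103 and 98.1 in siDual, 214 and 193 in siMECOM and 207 and 208 in siWT1, against 292 and 252 CPM in siNT1 and 256 and 259 in siNT2. It was lowest in siPAX8, and its siMECOM and siWT1 libraries stood a little below the controls. UBE2C, which feeds ubiquitin to the anaphase-promoting complex, ranged over 49.7 to 145 CPM in the 10 targeting libraries, against 163 to 173 CPM in the 4 control libraries, with -1.71, -1.12, -1.51, -0.43 and -0.26 in siPAX8, siSOX17, siDual, siMECOM and siWT1.

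The smallest of these falls are the least firm. TTK, a spindle checkpoint kinase, was -0.18 in siWT1 and was shared in 7 of 25 alternative settings, and BIRC5, survivin, was -0.17 in siWT1 and was shared in 15 of 25. CCNB1, cyclin B1, was shared in 25 of 25, at -1.5, -0.86, -0.99, -0.34 and -0.26. In the list of G1/S and DNA replication, all 30 were lower in the mean and in siPAX8, siSOX17 and siDual. Of the 30, only 3 were shared lower (10%, against 3.09% of all genes tested). These were E2F1, RRM1 and TK1. In siWT1 the median of that list was 0.11, with 5 genes called higher and 4 lower.

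RRM1, the large subunit of ribonucleotide reductase, was at 61.2 and 60.4 CPM in siPAX8, 76.8 and 77.3 in siSOX17, 69.6 and 68 in siDual, 110.3 and 110.04 in siMECOM and 101 and 96.3 in siWT1, against 141 and 137 CPM in siNT1 and 144 and 139 in siNT2. TK1, thymidine kinase, was at 128 and 119.8 CPM in siPAX8, 241 and 249 in siSOX17, 186 and 177 in siDual, 264 and 245 in siMECOM and 163 and 195 in siWT1, against 333 and 322 CPM in siNT1 and 297 and 339 in siNT2. E2F1, a transcription factor of S phase entry, gave -2.16, -1.27, -1.94, -0.33 and -0.57 on the log2 scale in siPAX8, siSOX17, siDual, siMECOM and siWT1. For RRM1, TK1 and E2F1 the targeting and control libraries did not overlap. FANCI was the shared gene among 28 of homologous recombination and Fanconi repair (3.57%, against 3.09% of all genes tested). It gave -1.26, -0.84, -1.08, -0.37 and -0.33, and CDKN2C, the CDK4 and CDK6 inhibitor p18, was shared lower at -1.31, -1.13, -1.03, -0.54 and -0.51.

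Among p53 target genes, 3 of 26 were shared higher and none lower, with 12 higher and 6 lower in the mean and a median of 0.13. ZMAT3, an RNA-binding protein, was at 21 and 23 CPM in siPAX8, 22.1 and 21.2 in siSOX17, 23.6 and 25.5 in siDual, 15.2 and 14.8 in siMECOM and 22.7 and 19.4 in siWT1, against 12.2 and 11.6 CPM in siNT1 and 12.3 and 10.6 in siNT2 and changed least in siMECOM. GADD45A, a stress protein that restrains the cell cycle, ranged over 38.1 to 57.7 CPM in the 10 targeting libraries, against 26.8 to 35.9 CPM in the 4 control libraries, with a log2 fold change of 0.63 ± 0.07. RRM2B, a ribonucleotide reductase subunit, changed little (log2 fold change 0.29 ± 0.07), and it was shared in 14 of 25 alternative settings.

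**Figure D4:**
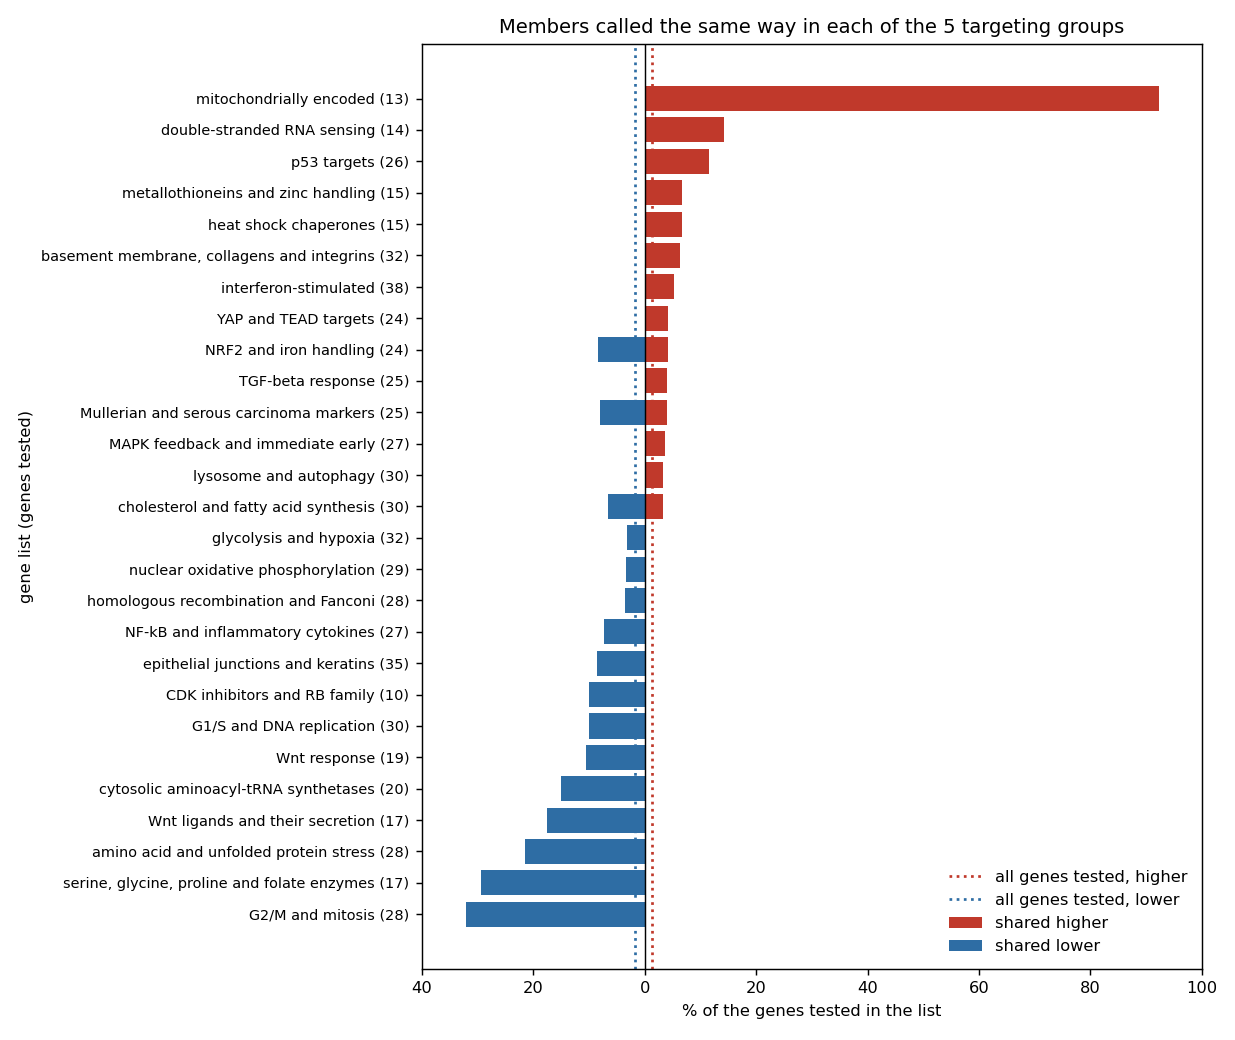
Share of the tested members of each gene list (y axis, with the number tested) that were shared higher (red, to the right) or shared lower (blue, to the left), for lists of at least 10 tested genes with at least 1 shared gene. Dotted lines give the same shares over all genes tested, 1.36% higher and 1.73% lower. The mitochondrially encoded messenger RNAs reach 92.3% on the higher side. On the lower side, mitosis, serine metabolism and amino acid stress reach 32.1, 29.4 and 21.4%. The lists of serine metabolism and amino acid stress both hold PHGDH, PSAT1 and SHMT2.

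Of 46 lists, 16 held no shared gene. Among these were cytosolic ribosomal proteins (40 tested), ribosome biogenesis (29), genes of epithelial-mesenchymal transition (21), Notch signalling (18), antigen presentation (18) and the BCL2 family (16). In some of these lists the medians of the groups had opposite signs. The median of the ribosome biogenesis list was -0.40 in siPAX8, -0.32 in siSOX17, -0.41 in siDual, -0.15 in siMECOM and 0.36 in siWT1. The median of the transition list was 1.01 in siPAX8, 0.72 in siSOX17, 1.12 in siDual, 0.22 in siMECOM and -0.67 in siWT1.

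The ranked shared increases were genes with the largest change in whichever group changed them least. COL17A1 (chromosome 10, 104031286 to 104086002, minus strand), a collagen that anchors epithelial cells to the basement membrane, was at 5.52 and 8.87 CPM in siPAX8, 2.41 and 2.89 in siSOX17, 4.84 and 5.38 in siDual, 2.58 and 3.29 in siMECOM and 2.59 and 2.49 in siWT1, against 0.636 and 0.821 CPM in siNT1 and 0.601 and 0.77 in siNT2. All targeting libraries were at least 2.41 CPM and all controls below 0.83 CPM, with a log2 fold change of 2.39 ± 0.16 (SE, adjusted p = 4.41e-10). TNNT2, cardiac troponin T, ranged over 1.6 to 11 CPM in the 10 targeting libraries, against 0.594 to 0.962 CPM in the 4 control libraries. Its log2 fold changes were 2.88, 2.56, 3.75, 1.34 and 1.44 in siPAX8, siSOX17, siDual, siMECOM and siWT1. The exons of TNNT2 overlap those of LAD1, which was not shared (-0.14 in the mean). The mean log2 CPM was 8.07 for LAD1 and 1.89 for TNNT2.

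DUSP4, a phosphatase that switches off MAP kinases, ranged over 2.69 to 7.11 CPM in the 10 targeting libraries, against 0.858 to 2.03 CPM in the 4 control libraries, and its relative DUSP9 fell, at 1.49 to 5.48 CPM in the 10 targeting libraries, against 8.49 to 13.6 CPM in the 4 control libraries. For both, the smallest change was in siMECOM. PPP2R1B, a scaffold subunit of the phosphatase PP2A, was at 90.6 and 92.3 CPM in siPAX8, 92.5 and 94.8 in siSOX17, 86.8 and 93.2 in siDual, 75.2 and 77.3 in siMECOM and 94.6 and 82.4 in siWT1, against 53.5 and 51.1 CPM in siNT1 and 36.3 and 36.2 in siNT2. It was the steadiest of the ranked increases, at 1.07, 1.11, 1.05, 0.81 and 1.02 on the log2 scale, and is also called between the control pools, with siNT2 lower than siNT1. STX11, a membrane fusion protein, gave 1.68, 2.03, 1.87, 1.14 and 1.23, and QPCT, glutaminyl cyclase, gave 1.24, 2.38, 1.86, 1.73 and 1.02.

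For other ranked increases the size depended strongly on the pool. TMEM40 was at 7.65 and 6.48 CPM in siPAX8, 10.9 and 8.65 in siSOX17, 16.5 and 19.2 in siDual, 1.28 and 1.11 in siMECOM and 0.972 and 0.67 in siWT1, against 0.636 and 0.547 CPM in siNT1 and 0.341 and 0.418 in siNT2, and RIPOR2, an inhibitor of small GTPase signalling, was at 5.12 and 5.44 CPM in siPAX8, 1.84 and 2.04 in siSOX17, 8.99 and 9.83 in siDual, 2.82 and 3.1 in siMECOM and 0.991 and 0.881 in siWT1, against 0.401 and 0.508 CPM in siNT1 and 0.581 and 0.44 in siNT2. In both the siDual libraries were highest and the siWT1 libraries nearest to the controls. ABAT, the transaminase that breaks down the transmitter GABA, was at 10.9 and 10.4 CPM in siPAX8, 16.1 and 15.8 in siSOX17, 18.8 and 17.5 in siDual, 4.82 and 6.51 in siMECOM and 1.91 and 1.76 in siWT1, against 1.23 and 1.23 CPM in siNT1 and 1.02 and 1.06 in siNT2. Its log2 fold changes were 3.23, 3.81, 4.0, 2.33 and 0.7 in siPAX8, siSOX17, siDual, siMECOM and siWT1, and its exons overlap those of TMEM186 (0.21 in the mean, not shared). BTN2A2, a butyrophilin of the immunoglobulin family, was at 9.64 and 10.6 CPM in siPAX8, 12.4 and 11.3 in siSOX17, 10.8 and 9.99 in siDual, 11.1 and 11.2 in siMECOM and 10.5 and 8.14 in siWT1, against 6.25 and 4.96 CPM in siNT1 and 6.61 and 5.3 in siNT2, and no difference among the groups was called for it (adjusted p = 0.182).

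Among the ranked decreases, LRRC41 (chromosome 1, 46261196 to 46303608, minus strand) was at 3.31 and 3.25 CPM in siPAX8, 13.9 and 9.497 in siSOX17, 3.73 and 2.93 in siDual, 10.6 and 9.76 in siMECOM and 11.4 and 13 in siWT1, against 37 and 29.7 CPM in siNT1 and 30.3 and 22.8 in siNT2. Its exons overlap those of RAD54L, a repair gene that was lower in the mean (-1.26) but not shared. LRRC61 and ZBED6CL, whose starts are 7150 bases apart on chromosome 7, both fell. LRRC61 gave -3.69, -2.42, -3.41, -1.01 and -2.45 and ZBED6CL gave -3.24, -2.56, -3.95, -0.96 and -1.5 in siPAX8, siSOX17, siDual, siMECOM and siWT1. ATP2B2, a plasma membrane calcium pump, was at 5.95 and 8.49 CPM in siPAX8, 2.29 and 3.502 in siSOX17, 1.97 and 3.13 in siDual, 11.49 and 13.5 in siMECOM and 5.96 and 9.13 in siWT1, against 25.1 and 28.8 CPM in siNT1 and 29.9 and 29.2 in siNT2. C2orf88, a small anchor of protein kinase A, gave -1.36, -1.25, -1.89, -1.34 and -1.23. TSC22D3, the glucocorticoid-induced leucine zipper protein GILZ, was at 11.7 and 9.83 CPM in siPAX8, 8.63 and 8.62 in siSOX17, 7.77 and 8.93 in siDual, 9.27 and 11 in siMECOM and 10.5 and 12.3 in siWT1, against 19 and 23.6 CPM in siNT1 and 23.4 and 20.7 in siNT2, with a log2 fold change of -1.15 ± 0.07. TSC22D3 had the smallest spread over the groups among the 12 ranked decreases.

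**Figure D5:**
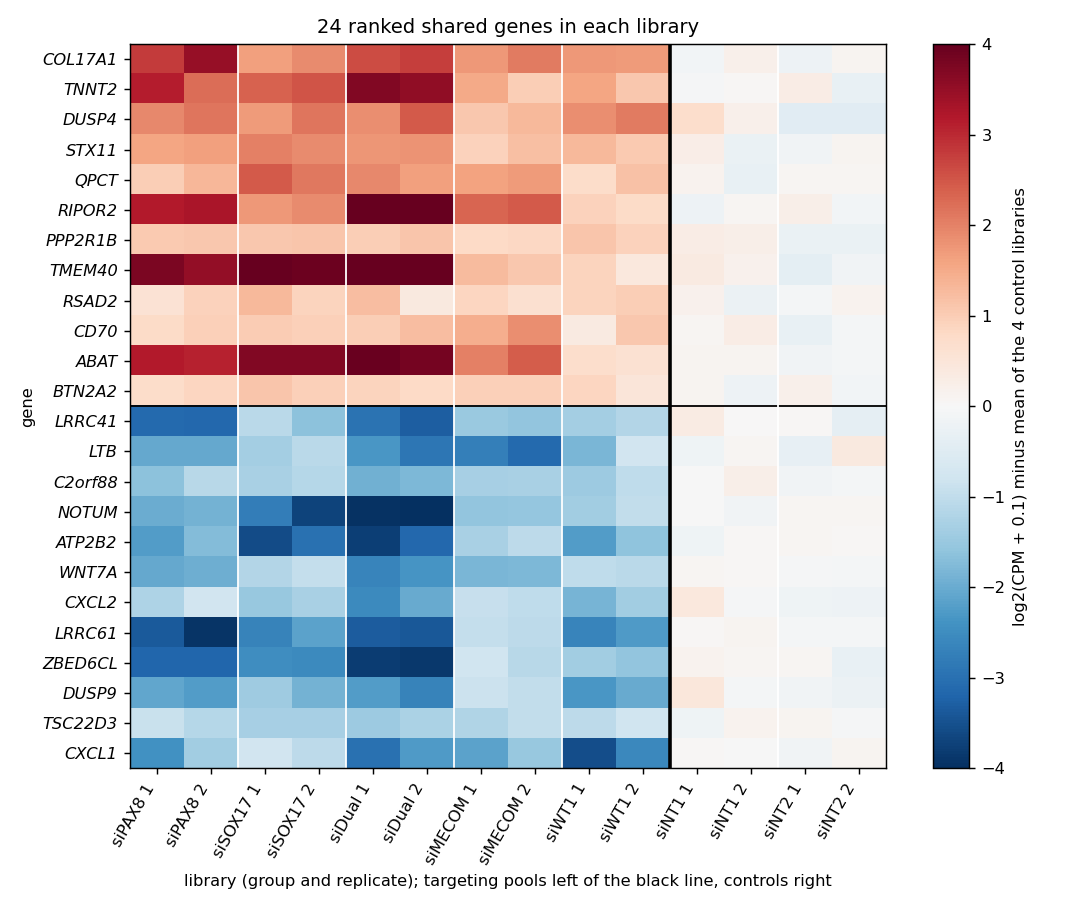
Colour gives log2(CPM + 0.1) minus the mean of the 4 control libraries for the 12 ranked increases (top) and 12 ranked decreases (bottom) in each library, targeting groups left of the black line and controls right of it; the scale ends at 4 in both directions. Every targeting column is red above and blue below the horizontal line, and siDual has the deepest colours in many rows.

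Lipid, epithelial and other genes gave single members. FADS2, a fatty acid desaturase, fell in every group (-0.78, -1.04, -1.14, -0.45 and -0.24), and SC5D, an enzyme of late cholesterol synthesis, rose (1.16, 0.53, 0.8, 0.42 and 0.27). In the list of cholesterol and fatty acid synthesis, 3 of 30 genes were shared (10%, against 3.09% of all genes tested). In the mean, 14 were lower and 3 higher. The exons of FADS2 overlap those of FADS1 and FEN1. MAL2, a protein of apical transport in epithelia whose exons overlap MAL2-AS1, was at 236 and 255 CPM in siPAX8, 263 and 263 in siSOX17, 238 and 270.2 in siDual, 134 and 134 in siMECOM and 188 and 183 in siWT1, against 418 and 405 CPM in siNT1 and 359 and 377 in siNT2, and CLDN4, a tight junction claudin, ranged over 97.9 to 132 CPM in the 10 targeting libraries, against 145 to 162 CPM in the 4 control libraries. ESRP1, an epithelial splicing factor, was at -0.24, -0.33, -0.26, -0.3 and -0.24. With MAL2 and CLDN4 it made up the shared genes of 35 in the list of epithelial junctions and keratins (8.57%, against 3.09% of all genes tested).

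GPX4, the peroxidase that protects membranes from lipid peroxidation, was lower (-0.52 ± 0.06), and AKR1C1, a reductase of the NRF2 response whose close relatives may share its reads, was higher (1.44 ± 0.15). KLK6, a kallikrein protease raised in serous cancers, was higher, at 1.54, 1.79, 1.99, 0.57 and 0.29 in siPAX8, siSOX17, siDual, siMECOM and siWT1. Its exons overlap those of the antisense gene AC011483.2, also shared higher, at 1.61, 1.88, 2.13, 0.59 and 0.36 in the same order. SLC30A1, a zinc exporter, gave 1.0, 0.73, 0.97, 0.32 and 0.2, and GABARAPL1, an autophagy protein, 0.88, 0.61, 0.71, 0.57 and 0.6. CA12, a carbonic anhydrase, was lower at -2.56, -1.92, -3.08, -0.3 and -1.3, and it is also called between the control pools, siNT1 above siNT2. TNNT1, slow skeletal troponin T, was lower at -0.27, -0.37, -0.32, -0.94 and -0.34. LAMA4, a laminin chain, was higher at 2.25, 0.54, 1.75, 0.6 and 0.94, but it was shared in 8 of 24 alternative settings that tested it.

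The shared genes moved by different amounts in different groups. The median log2 fold change of the 286 higher genes was 0.87 in siPAX8, 0.85 in siSOX17, 0.98 in siDual, 0.64 in siMECOM and 0.53 in siWT1. For the 364 lower genes it was -0.78 in siPAX8, -0.79 in siSOX17, -1.0 in siDual, -0.46 in siMECOM and -0.48 in siWT1. An F test among the 5 targeting groups, which does not use the controls, called 227 of the 286 higher genes (79.4%) and 320 of the 364 lower genes (87.9%), against 78.3% of all genes tested. The 59 higher and 44 lower genes that it did not call are not shown to be equal across pools. Among protein-coding genes past 1.5-fold in each group, the smallest spread over the groups was that of MYO5B, an unconventional myosin of vesicle transport chosen after its values were seen, at 0.92, 0.79, 0.75, 0.78 and 0.67.

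Each group was also set against the mean of the other 4. Called genes made up 21.5% higher and 19.0% lower in siPAX8, 22.1% and 17.8% in siSOX17, 22.6% and 18.0% in siDual, 26.3% and 22.2% in siMECOM, and 30.6% and 31.0% in siWT1. Of the 286 shared higher genes, siDual was further from the controls than the other groups at 155 and nearer at 7, while siWT1 was further at 19 and nearer at 156, and siMECOM further at 28 and nearer at 116. Of the 364 shared lower genes, siDual was further at 195 and nearer at 11, siWT1 further at 50 and nearer at 200, and siMECOM further at 38 and nearer at 198. In siPAX8, 94 higher genes were further and 32 nearer, and in siSOX17, 77 were further and 36 nearer. Of the lower genes, 132 were further and 72 nearer in siPAX8, and 99 were further and 80 nearer in siSOX17.

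The shared genes with the largest F values among the pools were called in every group, but with changes of very different size. NPPB, B-type natriuretic peptide, was at 64.3 and 93.9 CPM in siPAX8, 417 and 399.6 in siSOX17, 415 and 409.6 in siDual, 19.8 and 13.7 in siMECOM and 14.4 and 12.7 in siWT1, against 16.1 and 10.1 CPM in siNT1 and 7.76 and 7.66 in siNT2. Its siMECOM and siWT1 libraries overlapped the controls, and it was shared in 13 of 25 alternative settings. The siWT1 libraries of NPPB lay within the range of siNT1, and it was not shared with siNT1 alone as control. TGFB2, a TGF-beta ligand, was at 50.3 and 58.6 CPM in siPAX8, 67.4 and 79.8 in siSOX17, 82.4 and 86.3 in siDual, 13.2 and 13.8 in siMECOM and 14.6 and 12.8 in siWT1, against 11.7 and 11.4 CPM in siNT1 and 8.84 and 9.59 in siNT2, and HSPB8, a small heat shock protein, at 116 and 107 CPM in siPAX8, 134 and 132 in siSOX17, 154 and 158 in siDual, 34.6 and 35 in siMECOM and 42.3 and 38.9 in siWT1, against 27.3 and 26.4 CPM in siNT1 and 27.3 and 29.2 in siNT2. PRSS23, a serine protease, was at 63.3 and 62.1 CPM in siPAX8, 150.1 and 150.5 in siSOX17, 135 and 138 in siDual, 71.6 and 63.4 in siMECOM and 26 and 24 in siWT1, against 21.4 and 21.2 CPM in siNT1 and 18.9 and 18 in siNT2, lowest among the targeting groups in siWT1. The exons of PRSS23 overlap those of FZD4, and those of TGFB2 overlap TGFB2-OT1.

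IMPDH1, an enzyme of guanine nucleotide synthesis, was at 117 and 109.5 CPM in siPAX8, 9.28 and 10.6 in siSOX17, 15.6 and 14.5 in siDual, 115 and 97.4 in siMECOM and 127 and 127 in siWT1, against 162 and 148 CPM in siNT1 and 129.8 and 151 in siNT2. The siSOX17 and siDual libraries were far below all others, and the siWT1 value of -0.21 sat at the edge of the rule. It was shared in 12 of 25 alternative settings.

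Other shared genes called between the control pools were SMAP2, PDGFD, SLC35A4 and GREM1. SMAP2, a regulator of ARF GTPases, was at 60.1 and 54.4 CPM in siPAX8, 52.5 and 54 in siSOX17, 59.5 and 58.9 in siDual, 48.5 and 42.4 in siMECOM and 33.6 and 31.1 in siWT1, against 35.2 and 37 CPM in siNT1 and 16.4 and 15.5 in siNT2. The siNT2 libraries stood well below siNT1, and the siWT1 libraries lay between siNT2 and siNT1. PDGFD, a platelet-derived growth factor, ranged over 9.84 to 28.5 CPM in the 10 targeting libraries, against 6.55 to 10.6 CPM in the 4 control libraries, and SLC35A4, a nucleotide sugar transporter homologue, over 189.8 to 251 CPM in the 10 targeting libraries, against 146 to 201 CPM in the 4 control libraries. GREM1, a secreted antagonist of bone morphogenetic proteins, was at 10.2 and 11.52 CPM in siPAX8, 0.871 and 1.46 in siSOX17, 3.43 and 4.3 in siDual, 11.3 and 14.6 in siMECOM and 4.496 and 5.38 in siWT1, against 10.8 and 14.2 CPM in siNT1 and 22.6 and 25.2 in siNT2, with siNT1 below siNT2. In PDGFD, SLC35A4 and GREM1 the ranges of targeting and control libraries overlapped.

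The shared genes were more often protein-coding and more highly expressed than all genes tested. Genes with many counts more readily reach a call in every group, so both traits may follow from the rule. Protein-coding genes were 84.5% of the shared genes and 69.9% of all genes tested. They were also 4031 of the 5084 genes called higher in the mean and 4403 of the 5440 called lower. The median level was 4.18 log2 CPM for shared higher genes, 5.15 for shared lower genes and 3.10 for all genes tested. They were spread over the chromosomes, with 78.4% of the tested mitochondrial genes shared and 0.437 to 3.83% of those on each autosome. Exons of another tested gene overlapped 45.4% of the shared genes and 49.2% of all genes tested. For some named genes the overlapping gene was itself shared the same way: SIK2 for PPP2R1B, AC008870.3 for PLK1 and RRM1-AS1 for RRM1. Overlapping genes that were not shared were ERN2 for PLK1, POLG for FANCI, ACTR3C for LRRC61, APBB3 for SLC35A4 and AC090877.2 for GREM1. The strand used in counting is not known here, so reads of such pairs may not be told apart.

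Promoter windows were compared for 11 short motifs, as a description. Among 164 windows of shared higher genes, 6.10% held ACATTCC, the letters of a TEAD site, against 2.18% of all 11562 windows and 1.59% of the 252 windows of shared lower genes. CACGTG, an E box, was in 16.5% of the windows of shared higher genes, 11.1% of those of shared lower genes and 9.83% of all. TTTGAA, the letters of a cell cycle homology region, was in 12.8% of shared higher, 16.3% of shared lower and 9.84% of all windows. GGGCGG, a GC box, was in 68.3, 77.8 and 68.5% in the same order, with median GC contents of 64.3, 67.7 and 65.0%. A window was matched for 164 of 223 shared higher and 252 of 314 shared lower nuclear protein-coding genes.

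The count of shared genes rests on the groups that changed least. Leaving out siWT1 as a group gave 1135 shared higher and 1061 shared lower genes, and leaving out siMECOM, an alternative chosen after seeing the data, gave 659 and 791. Without the first siWT1 library the shared higher genes numbered 183 in place of 286. Of the shared genes, 67 higher (23.4%) and 113 lower (31%) met the rule under every alternative that tested them, among them ATF4, PSAT1, PHGDH, WNT7A, NOTUM, PORCN, COL17A1 and IFIH1.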

How the data were processed

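RNA from OVCAR4 cells was sequenced in 14 libraries, 2 for each of 7 siRNA groups. The authors deposited whole-number read counts per gene in 1 table. Per the submitters' processing notes, STAR 2.5.1b, featureCounts 1.6.3 and the hg38 build were used. The strand setting and the annotation release are not given in the sources used here. Of 58219 genes, 57881 matched GENCODE 29 by identifier, which gave positions and overlaps.

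CPM values (counts scaled to the library size) and tests were computed in R 4.3.3 with edgeR 4.0.16 (limma 3.58.1). Genes passing filterByExpr (minimum count 10, minimum total 15) numbered 21032. TMM scaling and 1 quasi-likelihood fit over all 7 groups gave each contrast, with Benjamini-Hochberg adjustment over all tested genes and a threshold of 0.05. Fold changes carry edgeR's default prior count, and each SE is the size of the fold change divided by the square root of F. The script was tested on simulated data. The alternatives were DESeq2 1.42.0, other scaling, filters, controls and groups, a replicate block and leaving out libraries. Library totals of 40832825 to 49803860 counts limit the genes with few counts.

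Named genes were the 12 ranked increases and 12 ranked decreases by the smallest change over the 5 groups, among protein-coding shared genes of mean log2 CPM of at least 1 with no overlap between targeting and control libraries. To these were added up to 2 per direction from each list, the targeted genes, the 5 with the largest F and up to 5 called between the control pools. The genes and lists were chosen with earlier results of these data known. Some genes and 1 promoter sequence that these rules would name are not reported here, and the next in rank was taken.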

Additional observations from a re-analysis of the deposited data

Results flagged for a closer look

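Of 90 named genes that were checked, 81 are listed here. An F test among the 5 targeting groups, which does not use the controls, called their effects different from group to group. The adjusted p-values (edgeR's quasi-likelihood test, Benjamini-Hochberg adjustment) ran between 1.41e-15 and 0.0487, and 78.3% of all genes tested were called by the same test. The value given for each gene is the spread of its log2 fold change, the largest minus the smallest over the 5 groups.

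Among genes higher in the mean of the targeting groups, the pairs of most and least changed groups were as follows. With the largest change in siDual and the smallest in siMECOM, the spread was 2.65 for TGFB2, 2.42 for TNNT2, 2.17 for HSPB8, 1.02 for DUSP4 and 0.71 for ZMAT3. The spread was 0.54 for MT-TF where siDual changed most and siSOX17 least. Where siDual changed most and siWT1 least, it was 4.92 for NPPB, 4.44 for TMEM40, 3.33 for RIPOR2, 3.31 for ABAT, 1.79 for MT-TA, 1.71 for KLK6, 1.21 for MT-RNR2, 0.87 for SMAP2, 0.66 for MT-TT and 0.33 for IFI27. It came to 0.87 for TLR1 with siMECOM furthest from the controls and siSOX17 nearest. In genes that moved most in siMECOM and least in siWT1, the spread was 2.12 for TLR6 and 0.92 for CD70. The spread was 1.71 for LAMA4 and 1.58 for AKR1C1 where siPAX8 changed most and siSOX17 least. Where siPAX8 changed most and siWT1 least, it was 1.5 for COL17A1, 1.41 for PDGFD, 0.89 for SC5D and 0.803 for SLC30A1. It came to 0.897 for STX11, 0.296 for PPP2R1B and 0.27 for MT-ND4L with siSOX17 furthest from the controls and siMECOM nearest. In genes that moved most in siSOX17 and least in siPAX8, the spread was 0.53 for IFIH1 and 0.31 for SLC35A4. The spread was 2.59 for PRSS23, 1.37 for QPCT, 1.16 for MT-RNR1 and 1.16 for MT-ND6 where siSOX17 changed most and siWT1 least. Where siWT1 changed most and siPAX8 least, it was 0.94 for MT-TV.

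Among genes lower in the mean of the targeting groups, the pairs of most and least changed groups were as follows. With the largest change in siDual and the smallest in siMECOM, the spread was 2.99 for ZBED6CL, 2.78 for CA12, 2.28 for ATP2B2 and 1.58 for DUSP9. The spread was 1.9 for SLC7A11 and 1.38 for CXCL2 where siDual changed most and siPAX8 least. Where siDual changed most and siWT1 least, it was 3.13 for NOTUM, 1.53 for PHGDH, 1.45 for WNT7A, 1.0 for PSAT1, 0.895 for FADS2, 0.87 for SHMT2, 0.66 for C2orf88, 0.53 for GPX4, 0.46 for AARS and 0.45 for TSC22D3. It came to 0.68 for TNNT1, 0.54 for ATF4 and 0.42 for YARS with siMECOM furthest from the controls and siPAX8 nearest. In genes that moved most in siMECOM and least in siSOX17, the spread was 0.97 for MAL2. The spread was 3.01 for MECOM, 1.85 for LTB, 1.04 for PORCN, 0.79 for WARS and 0.54 for PYCR1 where siMECOM changed most and siWT1 least. Where siPAX8 changed most and siMECOM least, it was 2.68 for LRRC61, 1.83 for E2F1, 1.04 for TK1, 0.86 for RRM1 and 0.56 for SHMT1. It came to 1.89 for LRRC41, 1.44 for UBE2C, 1.42 for BIRC5, 1.32 for PLK1, 1.31 for TTK, 1.24 for CCNB1, 0.93 for FANCI and 0.802 for CDKN2C with siPAX8 furthest from the controls and siWT1 nearest. In genes that moved most in siSOX17 and least in siMECOM, the spread was 3.48 for GREM1. The spread was 3.68 for IMPDH1 where siSOX17 changed most and siWT1 least. Where siWT1 changed most and siMECOM least, it was 0.64 for TRIB3. It came to 0.29 for CLDN4 with siWT1 furthest from the controls and siPAX8 nearest. In genes that moved most in siWT1 and least in siSOX17, the spread was 2.09 for CXCL1.

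Among the targeted genes that were not shared, the groups lay on both sides of the controls. PAX8 had a spread of 2.92, with log2 fold changes of -2.52 in siPAX8 and 0.400 in siSOX17. SOX17 had a spread of 3.99, with log2 fold changes of -2.94 in siSOX17 and 1.05 in siMECOM. WT1 had a spread of 5.73, with log2 fold changes of -5.02 in siWT1 and 0.71 in siMECOM.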

How the results depend on the processing

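The counts of shared genes moved most with the groups required. Without siWT1, 1135 genes were shared higher and 1061 lower, and the shared genes that differ among the targeting groups numbered 1514. Without siMECOM, an alternative chosen after seeing the data, these numbers were 659, 791 and 1065. By construction, fewer groups have to be called. Leaving out siDual, siWT1 or siMECOM as a group kept all 650 shared genes. These settings could therefore hardly lower the number of alternative settings in which a gene stayed shared. Leaving out 1 library at a time gave 183 to 270 shared higher genes, the lowest without siWT1 replicate 1, and 254 to 356 shared lower genes, the lowest without siMECOM replicate 2. In these fits 388 to 505 shared genes differed among the groups, 4335 to 4988 genes were higher and 4763 to 5463 lower in the mean, and the lone library of a group was assumed to vary like the others. DESeq2 called 241 shared higher and 338 shared lower genes. With siNT1 alone as control there were 225 and 307, and with siNT2 alone 209 and 270.

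The replicate numbers were not taken to pair the libraries, since the labels give them no meaning and not every pair of groups passed 0.1. Over 21 pairs of groups the correlation of same-numbered deviations was -0.0982 to 0.485, with a median of 0.172 and 13 over 0.1, so shared variation by number is not excluded. A replicate block gave 355 shared higher and 428 shared lower genes. For the genes named by the rule, 1595 of 1596 values of the mean contrast kept their direction and call. The exception was WT1 without siWT1 (-0.59, adjusted p = 0.0606). Most of these genes were chosen because they were called in the mean, so this was largely fixed by the choice. Shared status was less firm. It held under every alternative that tested the gene for 23.4% of shared higher and 31% of shared lower genes. Genes with few counts, such as TLR6 and WT1, are the ones that depth limits.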
